A study of Mus musculus with 19 samples.

Results

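The genes described here are 10 genes of mineralization and of osteoblasts, the cells that lay down bone. They were chosen by name and are Alpl, Phospho1, Enpp1, Ank, Slc20a1, Mgp, Ibsp, Bglap, Phex and Ostn, 10 of the 27998 genes counted. Each of them was listed in all 19 libraries. The libraries hold single cells from the Achilles tenotomy site of mice given a dorsal scald burn together with the tendon cut, a model of heterotopic ossification, which is bone formed outside the skeleton. Day 0 (n = 4) is tissue from before injury per the study's text, although its labels list the burn as well. Day 3 (n = 3), day 7 (n = 4) and day 21 (n = 4) are days after burn and tenotomy. The p7N3 group (n = 4) had the same injury and a CD47-activating peptide, 10 mg/kg by intraperitoneal injection once a day for 3 days before and 3 days after it, and its cells were taken at day 7. The labels of p7N3 replicate 4 give no day, and that day comes from the study's text. The study's text compares p7N3 mice with mice given PBS. It does not say whether the day 7 libraries used here come from those mice, and the labels name no vehicle. The labels name C57 mice and mice with LysmCre and a floxed Tgfb1 gene, a deletion in myeloid cells, for the whole series and tie neither genotype to a library, so genotype could not be entered in any comparison. The replicates numbered 4 were deposited later than the others. The labels do not say whether any mouse gave more than 1 library, so p-values below measure the spread between libraries.

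Bone mineral forms where phosphate and calcium exceed what the matrix can hold in solution, and the balance of phosphate and pyrophosphate at the cell surface sets where that happens. Alpl encodes tissue-nonspecific alkaline phosphatase, which cleaves pyrophosphate to phosphate, and Phospho1 encodes a phosphatase of matrix vesicles that frees phosphate inside them. Enpp1 makes pyrophosphate, an inhibitor of crystal growth, and Ank is needed to bring pyrophosphate out of the cell. Slc20a1 encodes PiT-1, a sodium-dependent phosphate importer. Mgp, matrix Gla protein, is a vitamin K dependent protein that holds back calcification of cartilage and vessel walls. Ibsp, bone sialoprotein, and Bglap, osteocalcin, are proteins of bone matrix. Phex encodes a peptidase of osteoblasts and osteocytes whose loss gives X-linked hypophosphatemia, and Ostn encodes osteocrin, a peptide of bone and muscle that binds a natriuretic peptide receptor.

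The promoters of 8 of the 10 genes were found in RefSeq (build GRCm38.p6), and Mgp and Ostn had no entry. The 250 bases before each start were searched for ACCACA, the core that the osteoblast factor Runx2 binds, and for the same 6 letters on the other strand, TGTGGT. The motif was present in 4614 of 32851 such windows over all genes, or 14%. It was found in the windows of Bglap, Enpp1 and the first start of Slc20a1, shown with the motif in capitals, and not in that of Ibsp, shown for comparison because both it and Bglap are bone matrix genes. The first base of the motif lay 132 bases before the start of Bglap, 144 before that of Enpp1 and 77 before that of Slc20a1.
Bglap (chr3:88384467-88384716, minus strand): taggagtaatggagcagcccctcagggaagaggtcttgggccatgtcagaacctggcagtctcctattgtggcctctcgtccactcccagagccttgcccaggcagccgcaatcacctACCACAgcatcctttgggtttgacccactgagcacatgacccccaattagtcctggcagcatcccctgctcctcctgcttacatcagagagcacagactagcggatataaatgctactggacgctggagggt
Enpp1 (chr10:24712160-24712409, minus strand): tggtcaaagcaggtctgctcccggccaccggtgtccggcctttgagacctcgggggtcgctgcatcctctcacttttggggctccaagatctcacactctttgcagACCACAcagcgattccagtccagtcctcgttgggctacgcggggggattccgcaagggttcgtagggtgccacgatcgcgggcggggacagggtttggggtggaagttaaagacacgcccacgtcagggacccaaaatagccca
Slc20a1 (chr2:129198523-129198772, plus strand): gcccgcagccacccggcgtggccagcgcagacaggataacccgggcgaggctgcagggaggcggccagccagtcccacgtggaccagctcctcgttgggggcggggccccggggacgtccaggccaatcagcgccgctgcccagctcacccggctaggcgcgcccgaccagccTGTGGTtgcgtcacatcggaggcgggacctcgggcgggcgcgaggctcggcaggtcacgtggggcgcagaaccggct
Ibsp (chr5:104299037-104299286, plus strand): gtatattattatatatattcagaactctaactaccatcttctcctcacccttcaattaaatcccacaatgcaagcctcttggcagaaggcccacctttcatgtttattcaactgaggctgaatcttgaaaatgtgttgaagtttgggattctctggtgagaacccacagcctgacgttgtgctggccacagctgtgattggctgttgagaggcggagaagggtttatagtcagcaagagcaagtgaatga
A match of 6 letters is a description of the sequence only, and no match says no more than that these letters are not in the window.

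Bglap lies beside 2 near copies on the minus strand of chromosome 3 (GRCm38), with Bglap at 88383501 to 88384464, Bglap2 at 88377736 to 88378699 and Bglap3 at 88368616 to 88372743. Of the 343 distinct windows of 98 bases, the length of the sequenced cDNA read, in the Bglap transcript, 196 (57.1%) also occur in a transcript of one of the copies. The same holds for 218 of 374 windows of Bglap2 (58.3%) and for 22 of 2276 windows of Bglap3 (0.967%). Counts of Bglap and Bglap2 are therefore uncertain, since reads from the shared stretches cannot be told apart.

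After removal of low-quality barcodes 39541 cells remained, between 571 and 3668 per library. They held 3019467 to 5383855 unique molecular identifiers (UMIs, counted molecules) per library at day 0 and 11064153 to 39870492 in the other libraries, with a median per cell of 3414 to 4693 and of 6534 to 12406, so day 0 is the shallowest group. Clusters were named from fixed markers, and the genes of interest were kept out of the clustering. Stromal-like cells (11983, 30.3% of all), tenocyte-like cells (3106, 7.86%), mural-like cells of the vessel wall (1904), endothelial-like cells (2838) and monocyte/macrophage-like cells (14266, 36.1%) are the types used most, and 6 clusters of 3465 cells stayed unnamed. The share of monocyte/macrophage-like cells was 10% at day 0, 66.5% at day 3, 36% at day 7 and 12.9% at day 21, and that of tenocyte-like cells 1.3%, 0.0468%, 9.81% and 19.4%. The tenocyte-like cluster had the cartilage collagen gene Col2a1 as its leading gene, before the tendon genes Fmod and Tnmd.

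No cluster carried the osteoblast markers. These 6 markers were themselves among the genes kept out of the clustering, which could therefore not group cells by them. The lack of such a cluster thus does not decide whether osteoblasts were present, and the label of the gene set names no cell type here. Of all 39541 cells, 40 held UMIs of 2 or more of the 6 markers and 5 held UMIs of 3 or more. Sp7 was detected in 62 cells, Dlx5 in 631, Dmp1 in 223, Sost in 4 and Mepe in none, which allows a share of up to 0.00759% of cells with a UMI.

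Levels below are in CPM, the UMIs of a gene in the summed cells of a library divided by all their UMIs and scaled to counts per 1e6. Differences are log2 fold changes ± SE of edgeR's quasi-likelihood test on these sums, called at an adjusted p under 0.05 over all genes tested. The test also rescales each library by a factor (TMM), which the CPM does not. A fold change can therefore differ from the ratio of the CPM shown. In sums over all cells, more cells of a type and more RNA per cell cannot be told apart. Of the 10 genes, 5 to 8 passed the filter on low counts there, which a gene can pass through the group where it is high alone. At day 3 against day 0, 2 of 5 tested rose (37.3% of all genes tested rose) and 3 fell (37.3%). At day 7 against day 0, 1 of 7 rose (32.1%) and 4 fell (31.4%). At day 21 against day 0, 4 of 5 rose (25.9%) and 1 fell (25.9%). Between day 3 and day 7, 2 of 7 rose (29.6%) and 1 fell (27.6%), and between day 7 and day 21, 4 of 8 rose (22%) and none fell (22.1%). The median change of the tested members was -0.57, -0.34, 0.54, 0.24 and 0.94 in these 5 comparisons. That of all genes tested lay within 0.02 of no change, where the scaling of the libraries tends to put it. The medians are therefore no test of a shift of the members as a set. The members called from day 7 to day 21, Mgp, Ank, Slc20a1 and Phex, are 2 inhibitors, a phosphate importer and a peptidase.

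**Figure D1:**
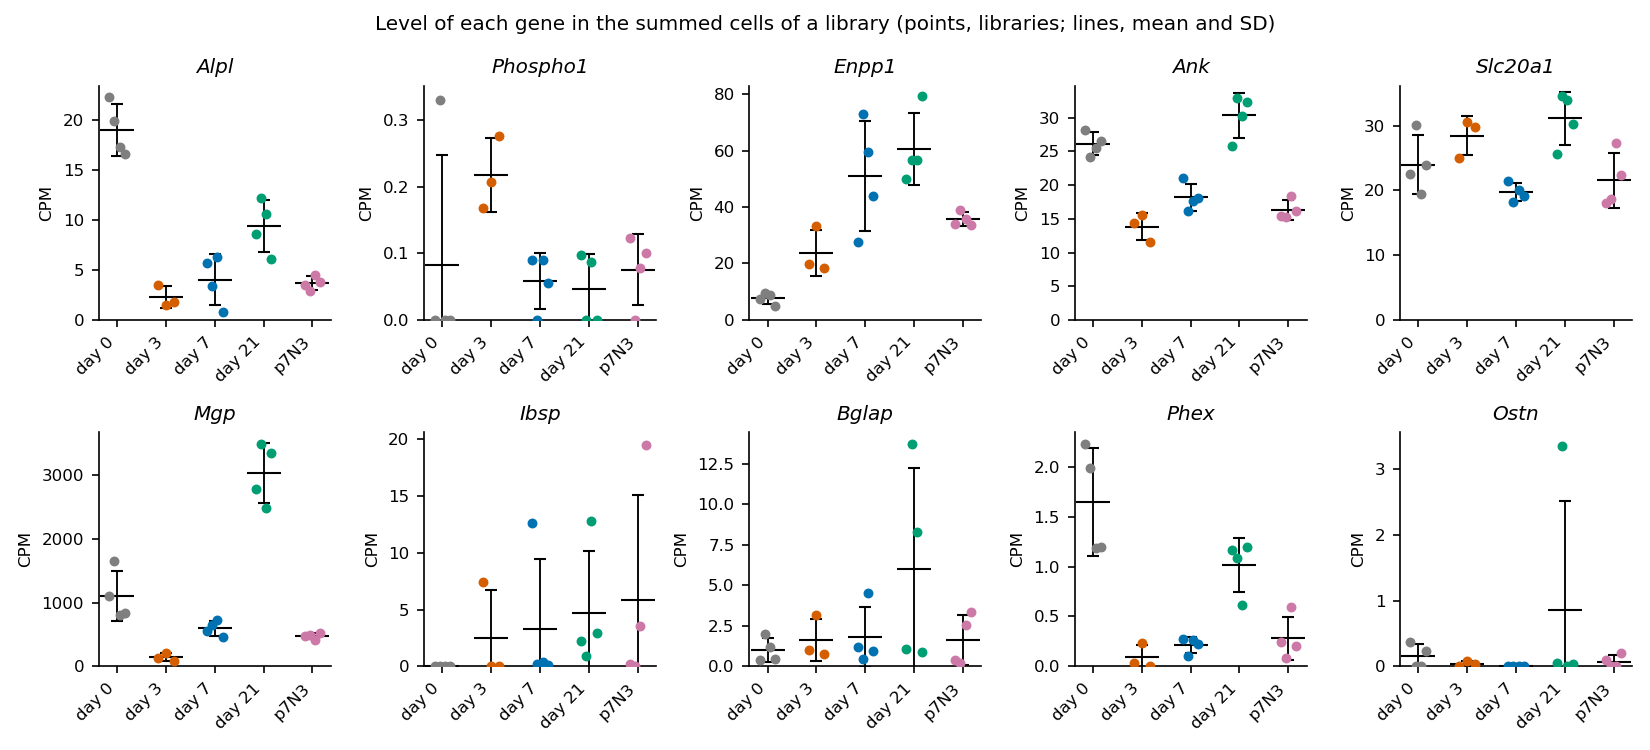
Level of each of the 10 genes in the summed cells of each library, in CPM on linear axes that start at 0, with points for libraries and black lines for the mean and SD of a group. Mgp is highest at day 21 in all 4 libraries, Enpp1 is lowest at day 0, Alpl is highest at day 0, and Ibsp is above 1 CPM in 7 of 19 libraries and Ostn in 1.

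Mgp, the matrix inhibitor, fell after injury and ended above its starting level. It was at 1109, 1650, 812 and 841 CPM in the 4 day 0 libraries, 135, 209 and 87.0 CPM at day 3, 553, 644, 728 and 455 CPM at day 7 and 2789, 3487, 2485 and 3346 CPM at day 21. The 4 days did not overlap. Mgp fell by 2.59 ± 0.34 on the log2 scale from day 0 to day 3 (edgeR adjusted p = 9.46e-05), rose by 1.90 ± 0.29 to day 7 (edgeR adjusted p = 0.000983) and by a further 2.32 ± 0.17 to day 21 (edgeR adjusted p = 6.45e-05). Day 21 was 1.62 ± 0.21 above day 0 (edgeR adjusted p = 0.000214).

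In stromal-like cells alone the same order held. Mgp was at 1607, 1702, 954 and 950 CPM at day 0, 221, 356 and 138 CPM at day 3, 562, 530, 741 and 363 CPM at day 7 and 3219, 4198, 3490 and 4327 CPM at day 21. Days 3 and 7 were lower than day 0 and day 21 was higher than each of the other days, with no overlap between them. The difference between day 21 and day 7 was 2.82 ± 0.20 (edgeR adjusted p = 8.73e-05) and that between day 3 and day 0 was -2.32 ± 0.29 (edgeR adjusted p = 1.84e-05). The rise from day 3 to day 7, 1.12 ± 0.31 (edgeR adjusted p = 0.0184), was no longer called without day 3 replicate 1 (0.0705) or replicate 3 (0.0547). Different clusters held most stromal-like cells at each day, cluster 12 (led by Myoc) at day 0, cluster 16 (Cfd and Prg4) at day 3, clusters 8, 2 and 7 at day 7 and cluster 2 (Sfrp4) at day 21. In cluster 16 the leukocyte gene Ptprc had a UMI in 49% of cells, and the summed level of all 12 monocyte/macrophage markers in stromal-like cells was 1560 to 1750 CPM at day 3 against 73.9 to 187 CPM at day 0. Its part in the day 3 values was not tested. When tenocyte-like cells were added to the stromal-like sums, Mgp at day 21 was 0.62 above day 0 and was not called (edgeR adjusted p = 0.0639).

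Mural-like cells went the other way from day 0. Their Mgp level was 230, 491, 358 and 288 CPM at day 0, 1935, 2655 and 1116 CPM at day 3, 3622, 4359, 4002 and 3676 CPM at day 7 and 4919, 5552, 3614 and 4824 CPM at day 21. Every library after injury lay above every day 0 library. Mgp rose by 2.51 ± 0.26 to day 3 (edgeR adjusted p = 1.28e-06) and was 3.48 ± 0.16 above day 0 at day 7 (edgeR adjusted p = 7.95e-11). The 2 mural-like clusters differed in their share of cells, since cluster 18, led by the smooth muscle gene Myh11, held 142 of the day 0 cells and cluster 13, led by the pericyte gene Rgs5, held 39. At day 7 cluster 13 held 474 and cluster 18 held 87. In cluster 13 alone the mean Mgp level was 1759 CPM at day 0, in 2 libraries of 24 cells in all, and 2311 CPM at day 3. These overlapped, at 1421 to 2097 CPM and 1438 to 3270 CPM. The mean of cluster 13 was 4115 CPM at day 7 and 6379 CPM at day 21. In cluster 18 the mean was 86.1 ± 51.9 CPM at day 0, 2005 ± 2200 CPM at day 7 and 1847 ± 1078 CPM at day 21 (SD, n = 4 each). Its day 7 libraries ranged from 281 to 5212 CPM, with a mean of 936 CPM without the highest library. The part of the shift between clusters in the mural-like change was not tested. All 10 stromal markers were detected in mural-like cells, at a summed 1060 to 2400 CPM at day 0 and 9080 to 10100 CPM at day 7. UMIs of Mgp per UMI of these markers were 0.36 to 0.439 in mural-like cells at day 7 and 0.00715 to 0.0116 in stromal-like cells.

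In tenocyte-like cells the 2 day 0 libraries with enough of them, of 17 and 12 cells, held Mgp at 12530 and 20520 CPM. The level was 2245, 932, 919 and 989 CPM at day 7 and 3269, 5116, 3475 and 3441 CPM at day 21. Neither day overlapped day 0, and the days did not overlap each other. Mgp fell by 3.36 ± 0.34 from day 0 to day 7 (edgeR adjusted p = 6.91e-05) and rose by 1.64 ± 0.28 from day 7 to day 21 (edgeR adjusted p = 0.000893). At a finer clustering, 982 of the day 7 cells of 1 cluster and 981 of the day 21 cells of another made up most of the tenocyte-like cells, so the days differ in which cells are summed.

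Endothelial-like cells held Mgp at 119, 100, 114 and 47.4 CPM at day 0 and at 970, 333, 540 and 493 CPM at day 21, with a difference of 2.67 ± 0.31 (edgeR adjusted p = 6.87e-05). These cells were mostly of 1 cluster at day 0 (cluster 10, 954 cells, against 39 of cluster 11) and mixed at day 21 (355 and 275). The mean Mgp level was 62.8 CPM at day 0 and 140 CPM at day 21 in cluster 10, and 1157 CPM, in 2 libraries of 27 cells in all, and 964 CPM in cluster 11. The part of this shift between clusters in the difference was not tested. Monocyte/macrophage-like cells held 119, 194, 90.3 and 708 CPM at day 21, and the mean was 48.4 CPM at day 0 and 31.1 CPM at day 7, a rise of 3.15 ± 0.53 from day 7 (edgeR adjusted p = 0.00233). All 10 stromal markers were detected in them, at a summed 1410 to 1710 CPM at day 7 and 1190 to 2550 CPM at day 21, and Mgp per UMI of these markers was 0.0629 to 0.435 at day 21 against 0.0441 to 0.0582 in stromal-like cells. The same ratio at day 21 was 0.497 to 0.595 in mural-like and 0.129 to 0.692 in endothelial-like cells. Free RNA as a source of the Mgp UMIs in monocyte/macrophage-like cells was not tested.

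Shares of cells with an Mgp UMI moved with depth and were compared after each cell was thinned to 1500 UMIs. In stromal-like cells the mean share was 41.1% at day 0, 21.6% at day 3, 37.9% at day 7 and 72% at day 21, against 59.0%, 79.8%, 77.3% and 94.3% without thinning. The unthinned share thus put day 3 above day 0, and the thinned share put it below, as the CPM did. In monocyte/macrophage-like cells the thinned share was 7.19%, 3.34%, 4.85% and 17.6%. The median depth over all libraries was 13373 UMIs for stromal-like cells and 6280.5 for those of the monocyte/macrophage-like class.

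Enpp1, the pyrophosphate-making enzyme, was higher in every library after injury than in any day 0 library. It was at 7.43, 9.60, 8.74 and 5.03 CPM over all cells at day 0, 19.7, 33.1 and 18.3 CPM at day 3, 27.6, 73.1, 59.4 and 43.8 CPM at day 7 and 49.8, 56.7, 56.7 and 79.2 CPM at day 21. Enpp1 rose by 1.99 ± 0.26 from day 0 to day 3 (edgeR adjusted p = 0.000112), and was 2.93 ± 0.33 above day 0 at day 7 (edgeR adjusted p = 3.59e-05) and 3.16 ± 0.22 above it at day 21 (edgeR adjusted p = 7e-06). Days 7 and 21 overlapped and did not differ by the test (0.22, edgeR adjusted p = 0.549). The rise from day 3 to day 7, 0.95 ± 0.34 (edgeR adjusted p = 0.0429), was lost without day 7 replicate 2 (0.0976), 3 (0.0904) or 4 (0.0543) and without day 3 replicate 1 (0.137) or 3 (0.135).

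In stromal-like cells Enpp1 was at 9.99, 12.4, 12.8 and 8.53 CPM at day 0, 22.1, 47.5 and 22.6 CPM at day 3, 30.3, 72.5, 62.3 and 43.4 CPM at day 7 and 23.2, 34.8, 33.6 and 49.6 CPM at day 21. Each later day lay above day 0 without overlap, by 1.64 ± 0.32 at day 3 (edgeR adjusted p = 0.000686), 2.30 ± 0.31 at day 7 (edgeR adjusted p = 5.24e-05) and 1.75 ± 0.27 at day 21 (edgeR adjusted p = 0.000431). Within the stromal-like cells of day 7 the mean was 97.8 CPM in cluster 15, led by genes of cell division. It was 67.5 CPM in cluster 8, led by Crabp1, and 13.8 CPM in cluster 2, led by Sfrp4. Cluster 12, led by Myoc, held 838 cells at day 0. Its mean ± SD was 14.28 ± 3.609, 11.58 ± 14.17 and 19.18 ± 10.88 CPM at days 0, 7 and 21 (n = 4 each). Cluster 2 was at 1.508 CPM at day 0 and 18.39 CPM at day 21. Cluster 14, led by Has1, was at 0.6408, 12.46 and 4.619 CPM at days 0, 7 and 21. No day 0 library held 10 cells of cluster 8 or 15. How far cell composition contributed to the stromal-like Enpp1 change was not tested.

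Tenocyte-like cells held more Enpp1 than stromal-like cells. They had 135, 154, 138 and 136 CPM at day 7 and 122, 134, 141 and 142 CPM at day 21, a narrow range over the 8 libraries. The difference from stromal-like cells of the same libraries was 1.55 ± 0.12 at day 7 (edgeR adjusted p = 6.63e-12) and 2.09 ± 0.15 at day 21 (edgeR adjusted p = 1.5e-12). The 2 day 0 libraries had 88.1 and 22.3 CPM, on 8 and 2 UMIs. The lower value is under the 33.45 CPM that 3 counts would give in that library. Enpp1 was 1.67 ± 0.36 higher at day 7 than in these (edgeR adjusted p = 0.0103), a call that was lost without day 0 replicate 4 (0.199). The tenocyte-like share of all cells, given above, was lower at day 3 than at day 0 and higher at day 21 than at day 7. Its part in the Enpp1 level over all cells was not tested. Monocyte/macrophage-like cells had 8.58, 8.07, 0 and 10.7 CPM at day 0 and 22.9, 29.4 and 20.6 CPM at day 3, a rise of 1.81 ± 0.44 (edgeR adjusted p = 0.00388). The day 0 values come from 355 cells with 1372765 UMIs in all, so they rest on few Enpp1 UMIs. The thinned share of cells with an Enpp1 UMI at day 7 was 18.1% in tenocyte-like, 5.26% in stromal-like and 0.994% in endothelial-like cells. Free RNA as a source of these UMIs was not tested.

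Ank, which brings pyrophosphate to the outside of the cell, moved in the opposite direction from Enpp1 early on in sums over all cells. Over all cells it was at 28.2, 24.2, 25.5 and 26.6 CPM at day 0, 14.4, 15.6 and 11.6 CPM at day 3, 21.0, 16.2, 17.6 and 18.1 CPM at day 7 and 25.7, 33, 30.3 and 32.3 CPM at day 21. Days 3 and 7 lay below day 0 in every library, while day 21 overlapped day 0. Ank fell by 0.57 ± 0.12 from day 0 to day 3 (edgeR adjusted p = 0.00217) and rose by 0.70 ± 0.10 from day 7 to day 21 (edgeR adjusted p = 0.000936). Day 7 was 0.34 ± 0.11 below day 0 (edgeR adjusted p = 0.0163), and this call was lost without day 0 replicate 1 (0.057).

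In stromal-like cells Ank was at 24.1, 26.0, 19.7 and 21.3 CPM at day 0, 14.2, 10.4, 14.6 and 12.7 CPM at day 7 and 17, 20.9, 17.4 and 22.9 CPM at day 21. At day 3 Ank was at 16.2, 16.7 and 7.49 CPM in these cells. Mgp was the 1 member called lower there at day 3 against day 0, so the lower Ank level was not called. Ank was 0.77 ± 0.16 lower at day 7 than at day 0 (edgeR adjusted p = 0.00116). It rose by 0.63 ± 0.14 from day 7 to day 21 (edgeR adjusted p = 0.00695). Tenocyte-like cells held 220 and 223 CPM in the 2 day 0 libraries, 58.8, 17.7, 18.4 and 30.4 CPM at day 7 and 42.1, 60.4, 52.0 and 44.1 CPM at day 21. Both later days lay below day 0. Ank was 1.83 ± 0.26 lower at day 21 than at day 0 (edgeR adjusted p = 0.00141) and 2.66 ± 0.64 lower at day 7 (edgeR adjusted p = 0.0174), the latter lost without day 0 replicate 3 (0.195) or 4 (0.218).

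Among the 8 cell types compared at day 7, the highest Ank levels were in small populations outside the stroma. Lymphatic endothelial-like cells held 99 ± 19.8 CPM (SD, n = 4) and Schwann cell-like cells, the glia of nerves, 88.5 ± 18.0 CPM (SD, n = 3), against 12.9 ± 1.89 CPM in stromal-like cells. The differences were 2.64 ± 0.26 (edgeR adjusted p = 1.68e-10) and 2.32 ± 0.35 (edgeR adjusted p = 1.91e-06). The levels of these populations at day 21 were 50.04 ± 22.3 CPM and 49.4 ± 20.2 CPM (SD, n = 4 each). Tenocyte-like cells were at a like level that day, 49.64 ± 8.32 CPM, and stromal-like cells at 19.53 ± 2.82 CPM (SD, n = 4 each).

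Slc20a1, the phosphate importer, differed between days by less than 1 on the log2 scale over all cells. It was at 22.5, 30.1, 19.4 and 23.9 CPM at day 0, 25, 30.5 and 29.8 CPM at day 3, 21.5, 18.2, 20.02 and 19.1 CPM at day 7 and 25.6, 34.5, 34 and 30.2 CPM at day 21. Day 7 lay below days 3 and 21 in every library, while day 0 overlapped with each later day. Slc20a1 rose by 0.61 ± 0.13 to day 3 (edgeR adjusted p = 0.00221), fell by 0.69 ± 0.10 to day 7 (edgeR adjusted p = 0.000609) and rose by 0.62 ± 0.10 to day 21 (edgeR adjusted p = 0.00115). The rise to day 3 is larger by the test, with its rescaled libraries, than by the CPM shown.

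The direction differed between cell types. In endothelial-like cells Slc20a1 was at 13.1, 25.1, 19.9 and 26.9 CPM at day 0 and at 46.1, 47.5, 40.1 and 58.3 CPM at day 7, a rise of 1.17 ± 0.19 (edgeR adjusted p = 7.1e-05). In monocyte/macrophage-like cells it was at 49.8, 52.5, 42 and 50.02 CPM at day 0 and at 18.1, 11.9, 21.7 and 13.4 CPM at day 7, a difference of -1.36 ± 0.25 (edgeR adjusted p = 0.000507). Neither pair of days overlapped, and the difference between the cell types in this change was not tested. Endothelial-like cluster 10 held 954 cells at day 0 and 52 at day 7, and cluster 11 held 39 and 538. The mean Slc20a1 level in cluster 10 was 19.67 CPM at day 0 and 26.25 CPM in 2 libraries at day 7. In cluster 11 it was 41.64 CPM, in 2 libraries of 27 cells in all, and 48.83 CPM. The part of this shift between clusters in the endothelial-like rise was not tested. In tenocyte-like cells Slc20a1 rose by 1.25 ± 0.26 from day 7 to day 21 (edgeR adjusted p = 0.00374), from 34.4, 14.9, 16.1 and 21.7 CPM to 34.6, 66.0, 51.4 and 32.9 CPM. In stromal-like cells the 4 means lay between 15.2 CPM at day 0 and 22.3 CPM at day 3, with a rise of 0.71 ± 0.17 to day 3 (edgeR adjusted p = 0.00305).

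Alpl, the phosphatase that removes pyrophosphate, was highest before injury. Over all cells it was at 22.3, 19.9, 17.2 and 16.5 CPM at day 0, 3.52, 1.45 and 1.82 CPM at day 3, 5.69, 3.41, 6.26 and 0.746 CPM at day 7 and 8.53, 12.2, 10.6 and 6.12 CPM at day 21. No later library reached the day 0 range. Alpl fell by 2.72 ± 0.29 to day 3 (edgeR adjusted p = 2.69e-05) and was 2.06 ± 0.48 lower than day 0 at day 7 (edgeR adjusted p = 0.0036). From day 7 to day 21 it was 1.17 ± 0.50 higher and not called (edgeR adjusted p = 0.0834), and it was called without day 7 replicate 4 (0.0398).

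In endothelial-like cells Alpl fell to day 3 and rose again from day 7 to day 21. They held Alpl at 68.9, 44.9, 65.2 and 42.1 CPM at day 0, 0, 2.74 and 1.16 CPM at day 3, 4.25, 3.24, 3.82 and 5.83 CPM at day 7 and 47.9, 59.8, 48.4 and 38.2 CPM at day 21. Days 3 and 7 stood apart from days 0 and 21, which overlapped. The pooled level at day 0 was 44.9 times that at day 3, on 228 and 3 UMIs (exact 95% interval from 15.2 to 219, counting error only), and the fall was called (edgeR adjusted p = 8.2e-07). Alpl rose by 3.52 ± 0.22 from day 7 to day 21 (edgeR adjusted p = 1.44e-06). Days 21 and 0 did not differ by the test (-0.17 ± 0.19, edgeR adjusted p = 0.539). In stromal-like cells the means were 4.77 ± 1.72 CPM at day 0, 4.79 ± 2.38 CPM at day 3, 6.88 ± 4.68 CPM at day 7 and 4.37 ± 1.68 CPM at day 21 (SD, n = 4, 3, 4 and 4), and Alpl was not called by edgeR in any of the 5 comparisons in which it was tested. The endothelial share of all cells was 28.8%, 1.43%, 4.38% and 12.7% at these days.

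The endothelial-like cells comprised 2 clusters whose shares changed with the day. Cluster 10, led by the capillary genes Gpihbp1, Fabp4 and Timp4, held 954 cells at day 0, 3 at day 3, 52 at day 7 and 355 at day 21. Cluster 11, led by the venous genes Selp and Ackr1 and by Plvap, held 39, 79, 538 and 275. In cluster 10 the mean Alpl level was 55.6 CPM at day 0, 32.4 CPM in the 2 day 7 libraries with at least 10 such cells and 104 ± 34.7 CPM at day 21 (SD, n = 4). In cluster 11 it was 1.32 CPM at day 3, 3.11 CPM at day 7 and 7.36 CPM at day 21, but 67.0 CPM in 2 day 0 libraries of 27 cells in all. Cluster 10 held more Alpl than cluster 11 at days 7 and 21, and the days on which its cells were few are those on which the endothelial level was low. The part of cell composition in the endothelial change was not tested. The thinned share of endothelial-like cells with an Alpl UMI was 7.42% at day 0, 0.923% at day 7 and 8.06% at day 21. The share in monocyte/macrophage-like cells at day 7, 0.212%, was not thinned and is not a like measure.

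**Figure D2:**
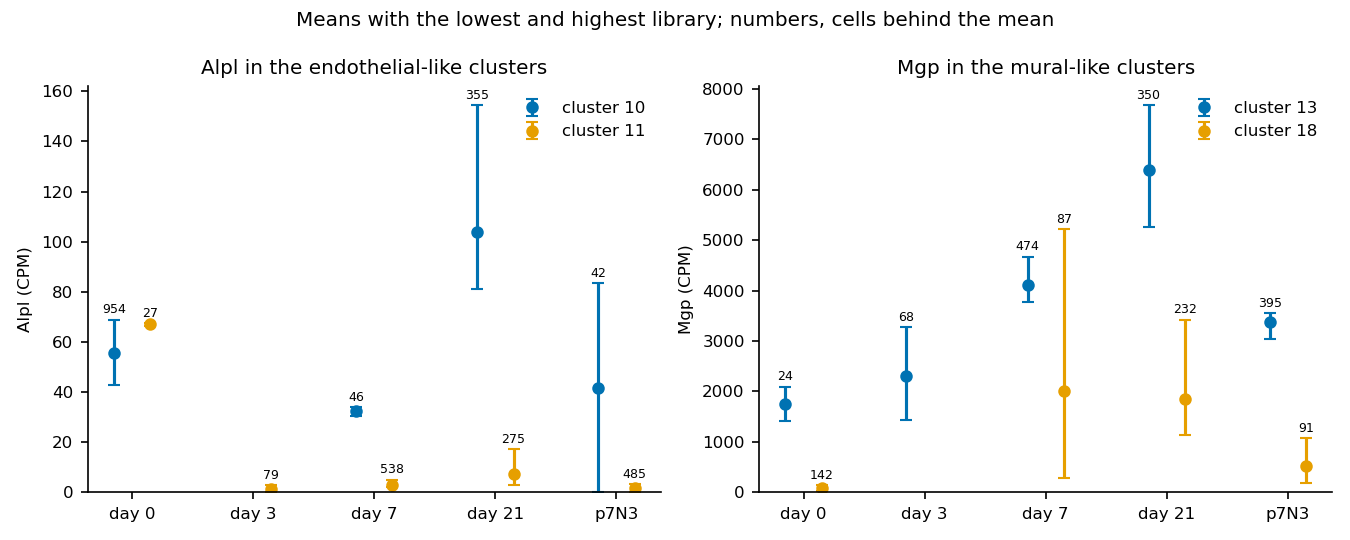
Mean level in CPM of Alpl in endothelial-like clusters 10 and 11 and of Mgp in mural-like clusters 13 and 18 by day, with lines from the lowest to the highest library and the number of cells beside each point. Clusters 10 and 18 have no point at day 3, where no library held 10 of their cells. Alpl in cluster 10 is above cluster 11 at days 7 and 21, and Mgp in cluster 13 rises from 1759 CPM at day 0 to 6379 CPM at day 21.

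Among stromal-like clusters Alpl was at 20.7 ± 12.3 CPM (SD, n = 4) in cluster 7 at day 7, led by Gzme and Sfrp1, and at 0.529 ± 0.275 CPM in cluster 8. Of all stromal-like and tenocyte-like cells, 314 held both Alpl and the osteoblast factor Runx2, and 9 of these held Ibsp, 3 Bglap and 6 Sp7. Phospho1, the vesicle phosphatase, had 40 UMIs in 39 cells over all 19 libraries, at most 0.331 CPM in any library, and passed the filter in none of the comparisons.

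Ibsp, the bone sialoprotein gene, was not detected at day 0 and was uneven after it. It had no UMI in the 4 day 0 libraries, which allows up to 0.557 to 0.994 CPM per library (3 counts, counting error only). It was at 7.42, 0.0297 and 0.0396 CPM at day 3, 12.6, 0.176, 0.358 and 0.0829 CPM at day 7, 2.19, 0.904, 12.8 and 2.91 CPM at day 21 and 0.185, 0.0564, 3.58 and 19.4 CPM in the p7N3 group. In each group 1 library held most of the gene's UMIs. Over the pooled libraries the level was at least 14.1-fold higher at day 3 than at day 0, at least 17.3-fold at day 7 and at least 22.2-fold at day 21, computed against 3 counts over the day 0 group. These bounds rest on single libraries. Without day 3 replicate 1 the day 3 libraries held 2 UMIs, at 0.0339 CPM under the day 0 limit of 0.178 CPM, and no bound can be given. The bound was 1.12-fold at day 7 without replicate 1 and 12.9-fold at day 21 without replicate 3. Ibsp did not differ between day 7 and day 21 by the test (0.45 ± 1.33, edgeR adjusted p = 0.805), whereas without day 7 replicate 1 the difference was 4.44 (edgeR adjusted p = 0.00738).

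A few cells held most of the gene's UMIs. Ibsp had 1628 UMIs in 135 of 39541 cells (0.341%), and 107 of these cells held 1 UMI. A single cell of p7N3 replicate 4 held 511 UMIs, 31.4% of the total, and the 10 richest cells held 87.5%. That cell also held 26 Alpl, 22 Smpd3, 6 Sp7 and 6 Runx2 UMIs and 952 UMIs of the collagen gene Col1a1. It held no UMI of Bglap, Phex or Dmp1. The next, in day 7 replicate 1, held 365 Ibsp UMIs with 1263 of the bone matrix gene Spp1, 294 of the collagenase gene Mmp13 and 3 of Sp7. The third, a tenocyte-like cell of day 21 replicate 3, held 127 Ibsp, 68 Bglap and 19 Alpl UMIs with 659 of Col2a1.

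Cells with at least 10 Ibsp UMIs numbered 12. Of these, 8 held Alpl, 7 Sp7, 6 Runx2 and 4 Bglap, and 9 held at least 100 UMIs of Spp1. Without selection on Ibsp, Sp7 was seen in 62 of 39541 cells, Alpl in 1147, Runx2 in 5619 and Bglap in 267. At least 100 UMIs of Spp1 were seen in 1039. The doublet scores of 5 of the 12 were among the highest 3.9% of cells. Without the cells of at least 10 Ibsp UMIs, a choice made after seeing the data, the mean level was 0.27 CPM at day 3, 0.312 CPM at day 7, 0.892 CPM at day 21 and 0.405 CPM in the p7N3 group, instead of 2.5, 3.3, 4.7 and 5.82 CPM. Of the UMIs, 1253 (77%) were in stromal-like, 330 (20.3%) in tenocyte-like and 21 in monocyte/macrophage-like cells.

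**Figure D3:**
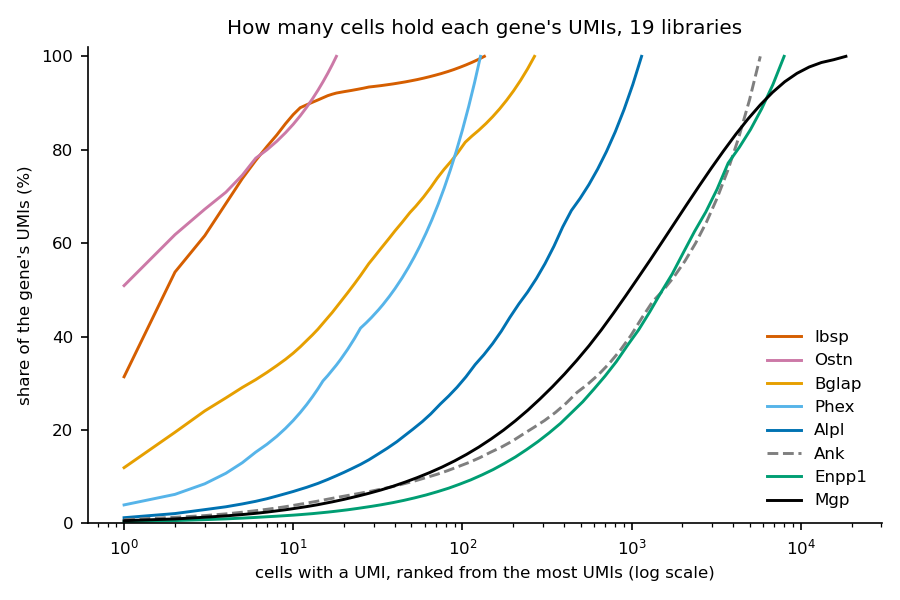
Cumulative percent of a gene's UMIs (y axis) held by its richest cells, ranked from the richest on a log x axis, over all 39541 cells for 8 of the genes. The curves of Ostn and Ibsp start highest, with 50.9% and 31.4% in 1 cell, Bglap starts at 11.9%, and Ank, Mgp and Enpp1 each start below 1%.

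Bglap, the osteocalcin gene, also had its highest values in few libraries. Over all cells it was at 0.372, 1.99, 1.18 and 0.479 CPM at day 0, 1.04, 3.15 and 0.753 CPM at day 3, 1.17, 0.477, 4.53 and 0.967 CPM at day 7 and 1.07, 13.7, 8.32 and 0.889 CPM at day 21. All groups overlapped, and no comparison called it, with 1.63 ± 0.94 between day 21 and day 7 (edgeR adjusted p = 0.185) and 1.13 ± 0.89 between day 7 and day 0 (edgeR adjusted p = 0.284). Bglap had 897 UMIs in 267 cells, of which 107 were in a single stromal-like cell of day 21 replicate 2. That cell held 76 UMIs of Bglap2, 18 of Bglap3 and 28 of Ostn, and no Alpl or Ibsp. Without the 19 cells of at least 10 Bglap UMIs the day 21 mean was 1.65 CPM in place of 6.0 CPM, and the means of the other groups were 0.779 to 1.17 CPM.

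The cells rich in Bglap were set beside those with Ibsp. Cluster 16, led by Cfd and Prg4, held 453 of the 897 Bglap UMIs, in 95 of its 1164 cells, and 1581 of the 2081 UMIs of Bglap2. Of the 19 cells of at least 10 Bglap UMIs, all held Bglap2, 3 held Alpl, 3 Ibsp and 2 Sp7, where 135 of all 39541 cells held Ibsp. At least 10 Cfd UMIs were seen in 22 of all 39541 cells and in 0 of these 19. With so few cells at this cutoff, the count does not decide whether Cfd marks the cells rich in Bglap. Bglap2 had 20 UMIs at day 0, 458 at day 3, 699 at day 7, 254 at day 21 and 650 in the p7N3 group, and Bglap 15, 156, 245, 295 and 186. These are raw counts and not levels, since the groups held 16812899, 88742632, 142847028, 72226929 and 123121293 UMIs of all genes, in the same order. At a finer clustering Bglap in stromal-like cells was called 2.58 lower at day 7 than at day 3 (edgeR adjusted p = 0.0041) and 1.62 higher at day 21 than at day 7 (edgeR adjusted p = 0.024), so its calls there depend on which cells count as stromal-like.

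Phex, the peptidase gene, was sparse but kept to a pattern. In stromal-like cells, which held 92.7% of its 177 UMIs, it was at 5.45, 6.78, 2.66 and 3.55 CPM at day 0, 0.106, 0.628 and 0 CPM at day 3, 0.476, 0.244, 0.475 and 0.377 CPM at day 7 and 3.02, 3.21, 1.74 and 3.14 CPM at day 21. Days 0 and 21 overlapped, and both lay above days 3 and 7 in every library. Phex fell by 3.42 ± 0.42 from day 0 to day 7 (edgeR adjusted p = 2.03e-05), on 28 and 26 UMIs, and rose by 2.86 ± 0.31 from day 7 to day 21 (edgeR adjusted p = 0.000243). Over all cells the rise was 2.25 ± 0.35 (edgeR adjusted p = 0.0012). Clusters 2, 12 and 14 held 63, 29 and 44 of the UMIs. Cluster 12, led by Myoc, had means of 5.26, 0 and 3.22 CPM at days 0, 7 and 21, and cluster 2 had 3.53, 1.35 and 2.55 CPM. In cluster 14, led by Has1, the mean was 3.27 ± 3.95 CPM at day 0, 1.30 ± 1.99 CPM at day 7 and 21.2 ± 24.2 CPM at day 21 (SD, n = 4 each). Its day 21 libraries ranged from 6.10 to 57.3 CPM, and their mean without the highest was 9.16 CPM. Clusters 7, 8 and 15, of 984, 1060 and 605 cells at day 7, had means of 0.0578, 0.136 and 0.262 CPM there. The part of cell composition in the stromal-like Phex change was not tested. Phex was seen in 128 cells, none of which held 10 UMIs or more.

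Ostn had 55 UMIs in 18 cells and was not tested. It had none in the 4 day 7 libraries, which allows up to 0.021 CPM over that group (3 counts), and 3 UMIs at day 0, 4 at day 3, 9 in the p7N3 group and 39 at day 21, of which 28 were in the Bglap-rich cell of replicate 2. Its level was 3.34 CPM in that library and at most 0.0487 CPM in the other day 21 libraries.

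Between cell types, the 5 genes tested (Alpl, Enpp1, Ank, Mgp and Slc20a1) were compared with stromal-like cells of the same libraries at days 7 and 21. At day 7, tenocyte-like cells were higher for 3 and lower for 1 (27.7% of all genes tested were called in either direction), mural-like higher for 1 and lower for 2 (47.8%), endothelial-like higher for 1 and lower for 3 (58.8%), lymphatic endothelial-like higher for 2 and lower for 3 (43.1%) and Schwann cell-like higher for 1 and lower for 3 (36.6%). Monocyte/macrophage-like cells were lower for 3 (76.6%) and plasmacytoid dendritic cell-like cells for 3 (45.9%). At day 21 the counts were 3 higher and 0 lower in tenocyte-like cells (30%), 0 and 1 in mural-like (48%), 2 and 3 in endothelial-like (59.8%), 1 and 3 in lymphatic endothelial-like (36.6%), 1 and 3 in Schwann cell-like (40%), 1 and 3 in monocyte/macrophage-like (62.5%) and 0 and 3 in skeletal muscle-like cells (22.2%).

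The Mgp difference between mural-like and stromal-like cells depended on the day. Mural-like cells were 2.66 ± 0.22 higher at day 7 (edgeR adjusted p = 1.95e-12) and 0.10 ± 0.36 higher at day 21 (edgeR adjusted p = 0.851), when stromal-like cells had reached 3809 ± 538 CPM and mural-like cells stood at 4727 ± 810 CPM (SD, n = 4 each). The change of this difference with the day was not tested. Endothelial-like cells held more Alpl than stromal-like cells at day 21, by 3.09 ± 0.27 (edgeR adjusted p = 4.42e-11), and more Slc20a1 at day 7, by 1.14 ± 0.17 (edgeR adjusted p = 4.8e-07). At day 7 they were 0.97 ± 0.39 lower for Alpl (edgeR adjusted p = 0.0321), a call that was lost without day 7 replicate 2 (0.0877) or 3 (0.228). Enpp1 was lower than in stromal-like cells in mural-like, endothelial-like, lymphatic endothelial-like and monocyte/macrophage-like cells at both days, by 3.81 ± 0.28 in endothelial-like cells at day 7 (edgeR adjusted p = 4.91e-14).

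**Figure D4:**
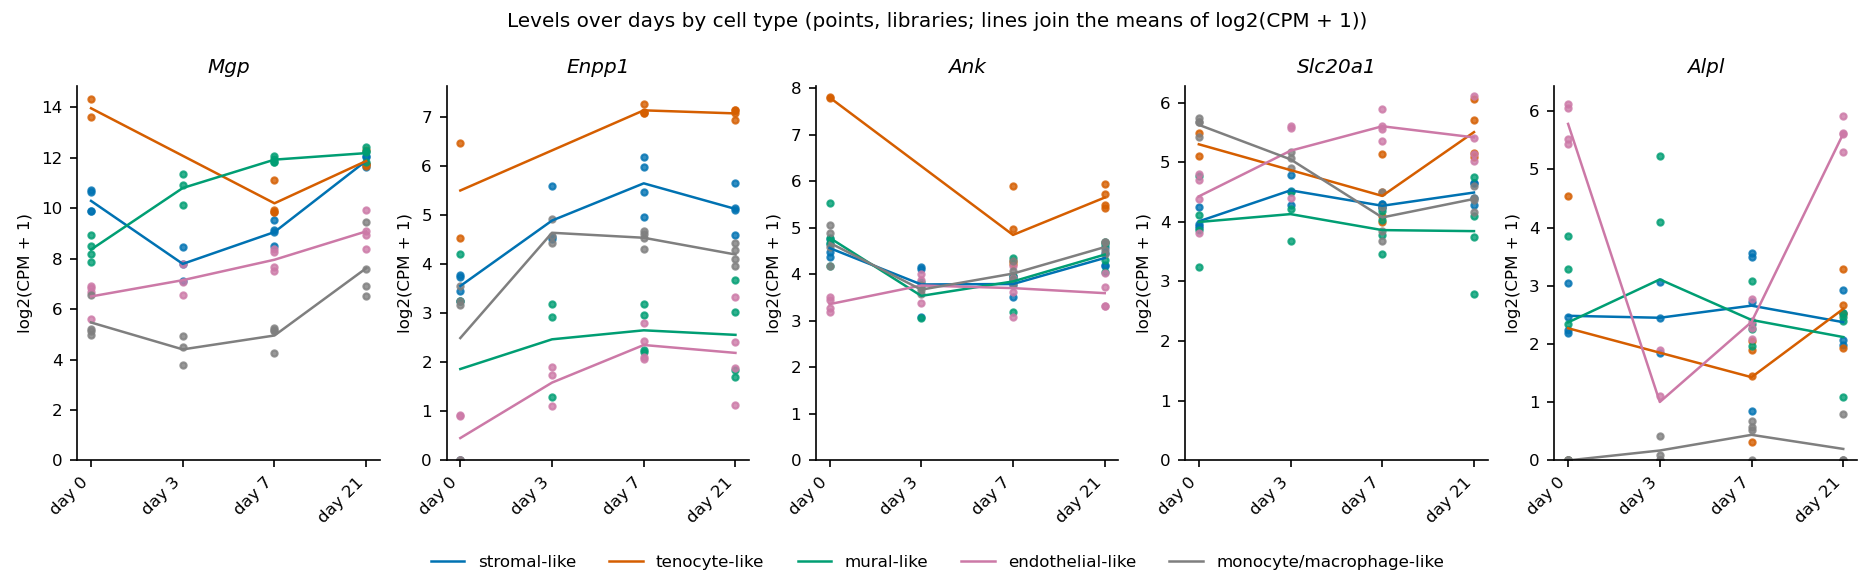
Levels of Mgp, Enpp1, Ank, Slc20a1 and Alpl as log2(CPM + 1) at days 0, 3, 7 and 21 in 5 cell types, with points for libraries and lines joining group means. The tenocyte-like line joins day 0 (2 libraries) to day 7, since no day 3 library held 10 such cells. Mgp of mural-like and stromal-like cells is far apart at day 7 and close at day 21, and endothelial Alpl dips at days 3 and 7.

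Calls within the other cell types over the days were as follows, with the percent of all genes called in either direction. In tenocyte-like cells 3 of 4 members tested were called at day 7 against day 0 (10.5%), 3 of 7 at day 21 against day 0 (8.09%) and 3 of 6 at day 21 against day 7 (31%). In endothelial-like cells the counts were 3 of 3 at day 3 against day 0 (58.2%), 3 of 4 at day 7 against day 0 (58.8%), 2 of 4 at day 21 against day 0 (26.3%), 0 of 3 at day 7 against day 3 (16.1%, with 1 at an unadjusted p under 0.05 in edgeR and 0 called by DESeq2) and 2 of 4 at day 21 against day 7 (28.5%). In mural-like cells they were 1 of 1 (57.7%), 2 of 3 (46.8%), 1 of 2 (31.5%), 2 of 4 (8.01%) and 1 of 3 (31%) in the same order, and in monocyte/macrophage-like cells 3 of 4 (54%), 2 of 4 (34.8%), 3 of 4 (26.6%), 2 of 4 (30.5%) and 2 of 4 (13.7%). In stromal-like cells 2 of 4 rose (33.4%) and 1 fell (32.8%) at day 3, 2 of 7 rose (27.7%) and 3 fell (26.3%) at day 7, and 3 of 5 rose (16.8%) and none fell (16.9%) at day 21, each against day 0. From day 3 to day 7, 1 of 6 rose (20.5%) and 1 fell (20.8%), and from day 7 to day 21, 3 of 7 rose (18.6%) and none fell (17.6%). DESeq2 called fewer members in some of these comparisons. It called 0 in mural-like and 1 in monocyte/macrophage-like cells at day 21 against day 7. Against day 0 it called 2 in monocyte/macrophage-like cells at day 21 and 4 in stromal-like cells at day 7. In monocyte/macrophage-like cells at day 3 against day 0 it called more, 4.

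The p7N3 group was compared with day 7 to ask whether the CD47 peptide went with a difference in these genes. No member was called by edgeR in any cell type. Over all cells 0 of 7 tested rose (0% of all genes rose) and 0 fell (0%), with 1 at an unadjusted p under 0.05 and 0 called by DESeq2. Among stromal-like cells none of the 6 tested rose (0%) or fell (0%), with 0 at an unadjusted p under 0.05 and 0 called by DESeq2. In tenocyte-like cells 0 of 4 were called (0.117% of all genes in either direction), in endothelial-like cells 0 of 3 (0%), with 0 at an unadjusted p under 0.05 in both and 0 by DESeq2. In mural-like cells 0 of 3 (0.0107%) and in monocyte/macrophage-like cells 0 of 4 (0%) were called, with 1 at an unadjusted p under 0.05 in each and 0 by DESeq2.

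Enpp1 over all cells was at 34, 39.1, 35.8 and 33.8 CPM with p7N3 and at 27.6 to 73.1 CPM at day 7, so the groups overlapped (-0.52 ± 0.25, edgeR adjusted p = 0.448). Mgp in mural-like cells was at 3373, 3126, 2508 and 2875 CPM with p7N3 and at 3622 to 4359 CPM at day 7. These did not overlap, and the difference of -0.40 ± 0.10 had an unadjusted p of 0.00158 and an edgeR adjusted p of 0.641. Mgp over all cells was at 473, 491, 408 and 521 CPM with p7N3 and 553, 644, 728 and 455 CPM at day 7 (-0.33 ± 0.14, edgeR adjusted p = 0.39). Ibsp differed by 0.83 ± 1.58 (edgeR adjusted p = 0.867).

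**Figure D5:**
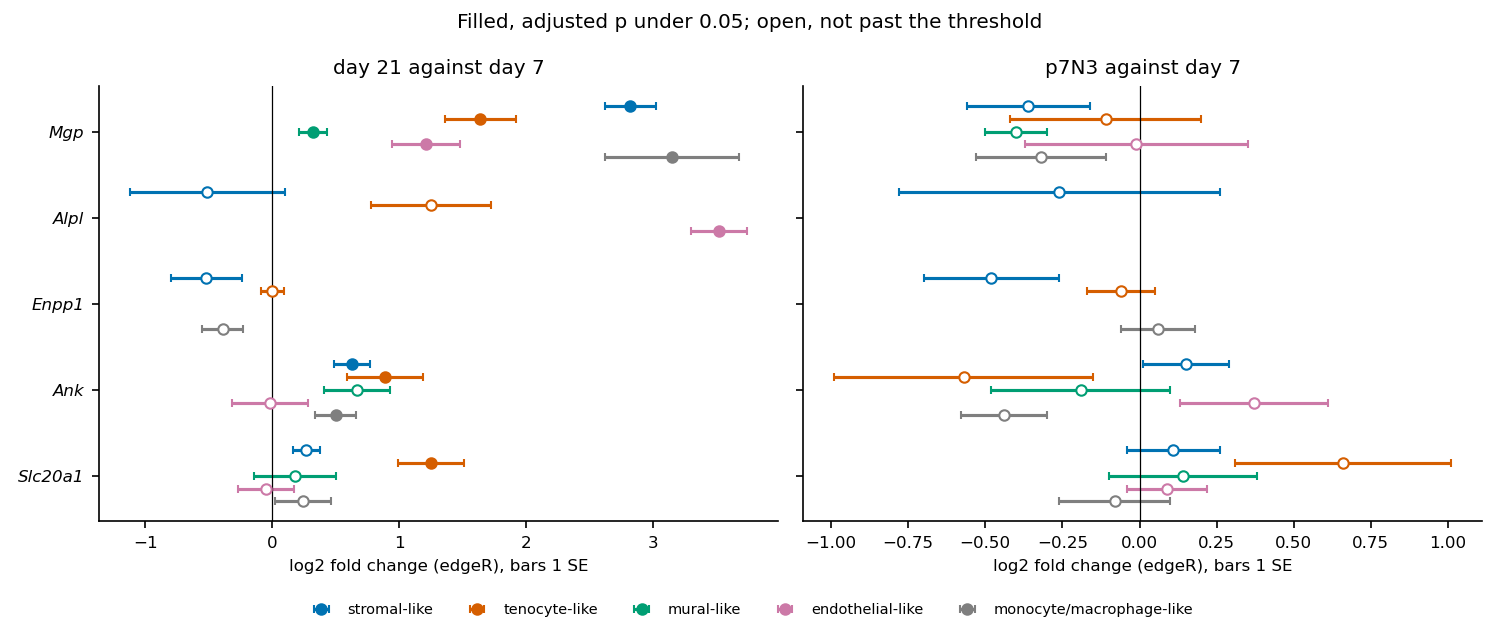
Log2 fold change ± SE by edgeR of Mgp, Enpp1, Ank, Slc20a1 and Alpl in 5 cell types, for day 21 against day 7 and for p7N3 against day 7, with filled points where the adjusted p is under 0.05. Several points of day 21 are filled and above 0, led by Alpl in endothelial-like cells at 3.52, and all points of p7N3 are open.

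Other genes of the same pathways were read from a list of 31. In stromal-like cells 4 of 20 tested rose and 9 fell at day 3 against day 0 (33.4% and 32.8% of all genes tested), 4 of 22 rose and 10 fell at day 7 (27.7% and 26.3%), and 5 of 21 rose and 6 fell at day 21 (16.8% and 16.9%). From day 7 to day 21, 8 of 23 rose and 2 fell (18.6% and 17.6%). Smpd3, which encodes a membrane sphingomyelinase needed for mineralization of bone and cartilage, went from a mean of 123.5 CPM at day 0 to 0.437 CPM at day 3, 1.51 CPM at day 7 and 11.6 CPM at day 21. It fell by 7.77 ± 0.34 to day 3 (edgeR adjusted p = 2.92e-09) and rose by 2.92 ± 0.54 from day 7 to day 21 (edgeR adjusted p = 0.00275). Runx2, the osteoblast transcription factor, went from 0.247 CPM to 16.6, 33.7 and 18.2 CPM. It rose by 6.72 ± 0.34 to day 7 (edgeR adjusted p = 2.09e-08) and fell by 0.82 ± 0.16 from day 7 to day 21 (edgeR adjusted p = 0.00322). The day 0 mean is under the 0.4707 CPM that 3 counts would give over that group, so the size of the rise is uncertain.

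Among the bone matrix genes of that list, Spp1, osteopontin, rose by 4.68 ± 0.41 in stromal-like cells from day 0 to day 7 (edgeR adjusted p = 1.19e-06), to 839 ± 160 CPM (SD, n = 4). It fell by 2.33 ± 0.54 to day 21 (edgeR adjusted p = 0.00818), where it was at 161 ± 167 CPM. The summed level of the 12 monocyte/macrophage markers in stromal-like cells was 73.9 to 187 CPM at day 0. That sum was 442 to 812 CPM at day 7 and 131 to 281 CPM at day 21. The part of macrophage RNA in the Spp1 change was not tested. Omd, a keratan sulfate proteoglycan of bone, and Fam20c, the kinase of secreted matrix proteins, had the pattern of days 0 and 21 above days 3 and 7. Omd had means of 34.2, 1.23, 3.21 and 12.6 CPM and Fam20c of 31, 11, 7.62 and 18.7 CPM. The receptor gene Npr2 rose by 0.82 ± 0.16 from day 7 to day 21 (edgeR adjusted p = 0.0032), and Npr1 fell by 2.80 ± 0.21 from day 0 to day 7 (edgeR adjusted p = 3.78e-07). Over all cells 5 of 21 of the list rose and 10 fell at day 3 (37.3% of all genes each way), 7 of 24 rose and 7 fell at day 7 (32.1% and 31.4%), and 10 of 23 rose and 5 fell at day 21 (25.9% each way), each against day 0. With p7N3 edgeR called none of 26 over all cells and none of 24 in stromal-like cells, with 2 and 3 at an unadjusted p under 0.05 and 0 and 0 called by DESeq2.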

How the data were processed

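Cells of the tenotomy site were measured by 10x 3' v2 single-cell RNA-seq in 19 libraries. The deposited values are raw UMI counts per gene and barcode, which the authors made with Cell Ranger. The study's text names the mouse build mm10, and the submitters' notes name GRCh38 for replicates 1 to 3 and mm10 for replicates 4, while all feature tables list mouse genes. No file gives the authors' cell annotation, so cell types were rebuilt and may differ from the study's.

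Cells were taken as barcodes in which 500 or more genes were detected and mitochondrial UMIs made up no more than 25%, and clusters came from scanpy 1.11.5 with leidenalg 0.10.2 (2000 variable genes, 30 principal components, 20 neighbours, resolution 0.8, 32 clusters) under Python 3.11.15. The 10 genes and the 31 of the pathway list were kept out of the clustering. Doublets stayed in, and removing the 3.9% of cells per library with the highest Scrublet scores (1409 cells) was an alternative. Between pairs of libraries at most 22 barcodes were shared, up to 1.256% of the smaller library.

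For each library, the UMIs of a cell type of 10 or more cells were added up and tested with edgeR 4.0.16 in R 4.3.3 (TMM, filterByExpr, quasi-likelihood F test, 2 groups per fit, Benjamini-Hochberg over all genes tested). The SE is the log2 fold change over the square root of F. Cell types were tested in 1 fit per day with the library as a block. Scripts were tested on simulated data. Alternatives were DESeq2 1.42.0, RLE factors, no low count filter, 1 fit of all groups, the replicate block, replicates 1 to 3 only, at most 10% mitochondrial UMIs (887 cells removed), resolution 2 (51 clusters), tenocyte-like cells added to the stromal-like sums, each library left out, and thinning to 1000 or 3000 UMIs. Leaving out cells rich in Ibsp or Bglap, and the highest library of a group for Ibsp bounds and for cluster levels of Mgp and Phex, was added after seeing the data. Intervals and floors cover counting error only.

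The genes and the lists were chosen with earlier results of these data known. The genes named are the 10, and of the pathway list up to 5 per direction and comparison that were called and reached a mean of 10 CPM in a group. One gene of that list is not reported here by name.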

Additional observations from a re-analysis of the deposited data

Results flagged for a closer look

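Of 59 groups of 4 libraries checked over all cells and in stromal-like cells, 5 held a library far from the other 3 by Dixon's criterion, where chance gives about 1 in 20. Ibsp over all cells was at 12.6 CPM in day 7 replicate 1 against 0.0829 to 0.358 CPM in the others, and at 12.8 CPM in day 21 replicate 3 against 0.904 to 2.91 CPM. In each of these libraries a single cell held most of the Ibsp UMIs, 365 in the first, in a cell among those of highest doublet score, and 127 in the other. Bglap in stromal-like cells was at 34 CPM in day 21 replicate 2 against 2.23 to 3.77 CPM, and the cell with 107 Bglap UMIs lies in that library. Phex in stromal-like cells was at 1.74 CPM in day 21 replicate 3 against 3.02 to 3.21 CPM. Slc20a1 in stromal-like cells was at 18.1 CPM in day 0 replicate 2 against 13.8 to 14.5 CPM.

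Day 0 replicate 1 is the only library whose tables list barcodes that no filter had removed. Its 367011 barcodes under 100 UMIs held 3782619 UMIs in all, data used in no comparison. There Mgp was at 861 CPM, Slc20a1 at 25.6 CPM, Ank at 17.4 CPM, Alpl at 9.25 CPM, Enpp1 at 5.55 CPM and Ostn at 1.59 CPM. In the cells of that library these genes were at 1109, 22.5, 28.2, 22.3, 7.43 and 0.372 CPM. Ibsp, Bglap and Phospho1 had no UMI in these barcodes, and the part of such free RNA in the levels per cell type was not tested.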

How the results depend on the processing

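The direction of every called difference held under every alternative that was run. Over the days, the 76 called results had 1187 alternative values, of which 1070 kept their side of the threshold and 117 lost it, and the 80 that were not called had 1265, of which 50 gained a call. Between cell types 264 of 295 values of the 50 called results kept their side and 31 lost it. In stromal-like cells the count of members called at day 3 against day 0 was 3, and 7 without the low count filter, 5 in 1 fit of all groups and 4 to 5 with each library left out, 5 without any 1 of the day 3 replicates. At day 7 against day 0 it was 5, and 3 to 5 with each library left out, 3 without any 1 of the day 7 replicates. At day 7 against day 3 it was 2, and 1 without the filter, 1 with replicates 1 to 3 only and 0 to 2 with each library left out, 0 without day 3 replicate 3. The cause of these shifts was not tested. RLE factors moved the median of all genes by at most 0.02, except by -0.10 in tenocyte-like cells against day 0, where the share of higher calls went from 69% to 62% at day 7 and from 70.7% to 63.1% at day 21. Of 200 shares, 101 moved with the thinning depth. The replicate numbers were not taken to pair the libraries, since in no comparison did every same-numbered pair of deviations correlate above 0.1 (range -0.30 to 0.42). For p7N3 against day 7, 3 of 4 pairs did, and in stromal-like cells these 3 correlated best with their own number (0.22, 0.12 and 0.17). With the replicate block the members called were 5, 5, 5, 4, 5 and 0 over all cells and 4, 4, 3, 3, 3 and 0 in stromal-like cells, for day 3, day 7 and day 21 against day 0, day 7 against day 3, day 21 against day 7 and p7N3 against day 7. No cluster was named chondrocyte-like, Col2a1 leading the tenocyte-like cluster, and granulocyte-like sums of 10 cells were too few for a fit. Depth limits Ibsp, Bglap, Phex, Ostn and Phospho1 most, at 40 to 1628 UMIs in all.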

Other observations

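The genes whose levels were most like those of the members were looked for over 145 sums of 13 cell types, by Pearson's r of log2(CPM + 1) over 8839 genes. The sums share libraries and differ in depth, so the values are a description. Mgp was most like Htra1 (r = 0.85), Cygb (0.83) and Nfatc4 (0.81). Enpp1 was most like Clec11a (0.78), Col8a2 (0.73) and Crabp2 (0.73), and Alpl like Tbx3 (0.70), Ttll7 (0.69) and Ptprg (0.68). Ank was most like Tmem237 (0.70), Tmod2 (0.67) and Rassf8 (0.67), and Slc20a1 like Fmnl3 (0.61), S1pr1 (0.58) and Zmiz1 (0.55). For the sparse genes the highest values were lower, with Mmp13 (0.52) for Ibsp and Mmp3 (0.59) for Bglap.

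Skeletal muscle-like cells, led by the satellite cell genes Pax7 and Myf5, held Alpl at 18.2 ± 6.61 CPM at day 0 (SD, n = 4) and at 19.4 ± 16.1 CPM at day 21 (SD, n = 3), on 22 and 6 UMIs. In the latter the difference from stromal-like cells was 1.64 ± 0.97 (edgeR adjusted p = 0.254).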
